A study of Mus musculus with 24 samples.

Results

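The measurements described here are those of the mouse retina between postnatal days 8 and 10 in hyperoxia. They were taken on 6 oligonucleotide arrays of 24 in the series, chosen by their labels alone. Of these, 3 held retinal total RNA of C57Bl/6 pups at postnatal day 10 after 72 hours of hyperoxia, and 3 held that of pups at postnatal day 8 after 24 hours of hyperoxia. Pups kept in room air at day 10 and at day 8, also with 3 arrays each, stand beside them as the course of the same days without added oxygen. The labels give no oxygen concentration, no number of animals per array and no statement that replicates came from separate animals. The p-values therefore reflect how far these arrays differ from each other, which may be technical variation alone. Age and hours of exposure change together between the hyperoxia groups and cannot be told apart. Both exposures last whole days, so from a common start they would end at the same time of day.

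The mouse retina is still immature at these ages. Most dividing progenitor cells have left the cell cycle, rods are building outer segments and the proteins of phototransduction, bipolar cells are forming synapses with photoreceptors, and Müller glia are taking on their mature transport functions. Raised oxygen at this age halts and prunes the growing retinal vessels, since it lowers the activity of hypoxia-inducible factor (HIF) and with it the vessel growth factor Vegfa. A comparison of these days in hyperoxia therefore spans the growth of the neural retina and a longer stay in oxygen, and cannot separate them.

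The deposited values were linear intensities, which were quantile normalized. A level below is the normalized signal of 1 array on that linear scale, and a difference is day 10 minus day 8 on the log2 scale, where 1 is a 2-fold change, given with its standard error from a limma fit over all 24 arrays (n = 3 arrays in each group). Signals under 135.6, the 20th percentile of the table, were raised to that floor. Because the signal of a probe set also depends on its sequence, levels are compared between arrays and never between genes. Calls were made where the p adjusted by Benjamini-Hochberg over the 15838 probe sets tested was under 0.05. In whole tissue, fewer cells of a type and less RNA per cell cannot be told apart.

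Markers of the labelled tissue were present. Crx, Nrl, Prph2, Pde6b and Rcvrn of photoreceptors, Glul, Rlbp1 and Slc1a3 of Müller glia and Pax6 of inner neurons all passed the filter on low values, between the 84.6th and the 99.9th percentile of mean signal. RNA of neighbouring eye tissue differed between the groups. The mean log2 level of 14 lens genes was 11.57, 13.49 and 10.65 on the hyperoxia day 10 arrays, against 8.73, 7.97 and 7.62 on the hyperoxia day 8 arrays. All 14 were higher at day 10, with a median difference of 3.89, against -0.01 over all probe sets tested. Of the 14, 13 did not overlap upward between the groups, against 8.84% of all probe sets, although 0 passed the test. The mean level of 12 genes of pigment epithelium and melanocytes was 10.17, 10.45 and 10.38 at day 10 in hyperoxia, against 9.79, 9.87 and 9.79 at day 8 in hyperoxia. In room air the lens level ranged from 9.86 to 12.46 at day 10 and from 8.81 to 13.19 at day 8, so there it moved with single arrays and not with the day. Neither level overlapped between the hyperoxia groups, and their part in the results below was not tested beyond a fit with both levels as covariates, whose count is given with the calls. The median deposited intensity was also higher on the hyperoxia day 10 arrays, at 625.7 to 654.3, than on the hyperoxia day 8 arrays, at 599.65 to 613.8. The log2 ratio of the 3′ to the 5′ control probe sets of Actb, a measure of RNA integrity, was 0.185 to 0.231 at day 10 and 0.176 to 0.188 at day 8 in hyperoxia.

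**Figure D1:**
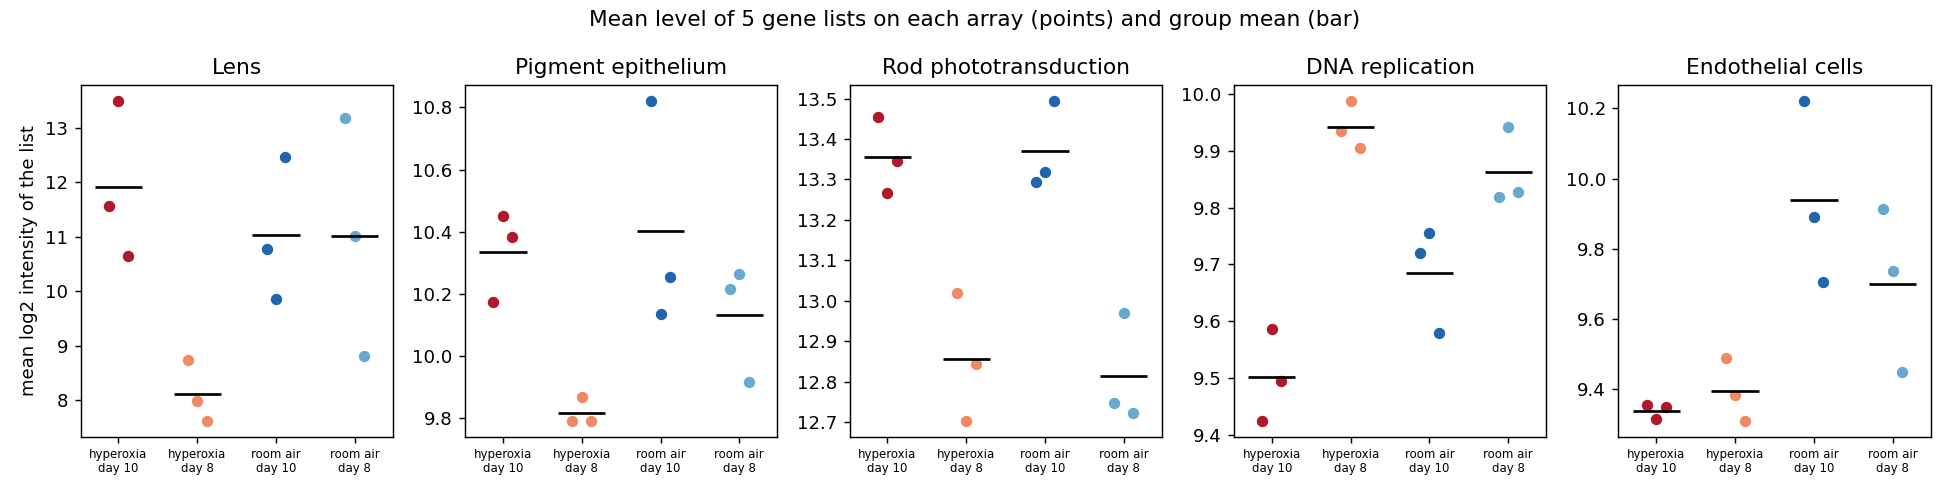
The mean log2 intensity of 5 gene lists is plotted for each of the 12 arrays of days 10 and 8 (points), with the group mean as a bar. In hyperoxia the lens, pigment epithelium, rod phototransduction and DNA replication lists did not overlap between day 10 and day 8, whereas the endothelial list did.

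Between day 8 and day 10 in hyperoxia, single genes of photoreceptors, synapses and glia rose, such as Opn1mw, Cplx4 and Aqp4, and single genes of cell division fell, such as Mcm5 and Cdk1. Of 15838 probe sets, 39 (0.246%) were called: 26 were higher at day 10 (0.164%) and 13 were lower (0.0821%), and in all 39 the groups of arrays did not overlap. They stand for 32 named genes, 21 that rose and 11 that fell, and 4 probe sets without a gene name. At an unadjusted p under 0.05, 1642 probe sets (10.4%) differed, 753 higher (4.75%) and 889 lower (5.61%), where chance alone gives about 792. With the replicate number as a block, 73 probe sets were called, 46 higher and 27 lower, and all 39 were among them. The deviations of same-numbered arrays correlated at 0.110 to 0.378 within a condition and at -0.31 to 0.16 between conditions. With a block within each condition, an alternative added after seeing the data, 64 were called, of which 34 were among the 39. The count was 1 without hyperoxia day 10 replicate 1, 7 without replicate 2 and 7 without replicate 3 of that group, and 2 without hyperoxia day 8 replicate 2 or replicate 3. With the lens and pigment levels as covariates 2 probe sets were called, Mcm5 (adjusted p = 0.0287) and the unnamed probe set 1418250_at (adjusted p = 0.0103, both limma with Benjamini-Hochberg adjustment). In that fit all 39 kept their direction, at 0.66 to 1.21 times their size with a median of 0.91.

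The probe set with the lowest p, 1418250_at, is not named in the annotation used here. Its signal was 1778, 2167 and 2292 at day 10 in hyperoxia, against 834.4, 907.9 and 783.6 at day 8. The difference was 1.30 ± 0.13 (adjusted p = 0.000108), and it was called in 16 of 17 other settings of the analysis.

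Genes of phototransduction in rods and in cones were among the rises. Light closes the cation channel of the photoreceptor through an opsin, the G protein transducin and a phosphodiesterase, and calcium feedback through guanylate cyclase and the sodium/calcium-potassium exchanger restores the dark state. Opn1mw, the medium-wavelength cone opsin, had signals of 2410, 1844 and 1764 at day 10 in hyperoxia, against 885.5, 639.7 and 568.4 at day 8. Every day 10 array lay above every day 8 array, and the difference was 1.54 ± 0.28 (adjusted p = 0.0235). Slc24a1, the rod exchanger that extrudes calcium, had signals of 10068, 8260 and 8083 at day 10, against 4378, 2916 and 2501 at day 8, a difference of 1.47 ± 0.27 (adjusted p = 0.0238). Guca1b, a calcium sensor that switches on retinal guanylate cyclase, had signals of 5498, 4212 and 4597 at day 10, against 2053, 1426 and 1352 at day 8, a difference of 1.58 ± 0.31 (adjusted p = 0.0368). A second probe set of Guca1b showed a difference of -0.16 ± 0.33 (adjusted p = 0.930), so its probe sets disagree.

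Gnat1, the transducin alpha subunit of rods, just missed the threshold. Its signals were 23039, 21396 and 17817 at day 10 in hyperoxia, against 11021, 6635 and 6229 at day 8, which did not overlap. The difference of 1.42 ± 0.30 had an adjusted p of 0.0533, of 0.0316 with the replicate block and of 0.0542 with the block within condition. Pde6a, a catalytic subunit of the rod phosphodiesterase, differed by 1.01 ± 0.25 (adjusted p = 0.103), and its lowest day 10 signal, 2115, was level with its highest day 8 signal, 2113. Of the 14 rod phototransduction genes tested, all 14 had a positive difference, 1 was called and 9 did not overlap upward, against 8.84% of all probe sets. The list's median was 0.29, against -0.01 over all probe sets tested. Of 9 cone genes, 8 were positive, with a median of 0.21 (0.13 without hyperoxia day 8 replicate 1) and 1 called. Cngb3, a subunit of the cone channel, ran the other way, with a difference of -0.41 ± 0.12 (adjusted p = 0.206) and groups that did not overlap. Of 15 genes of outer segment structure, cilium and retinoid cycle, 13 were positive, with a median of 0.15 (0.32 without hyperoxia day 10 replicate 1), and 1, Guca1b, was called. Abca4, the outer segment transporter that clears retinal, differed by 0.41 ± 0.12 (adjusted p = 0.192), and Rdh12, a retinal reductase, by 0.45 ± 0.14 (adjusted p = 0.227).

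The largest rise among the calls was that of Drd4, the dopamine receptor of photoreceptors, through which dopamine lowers cyclic AMP. Its signals were 8152, 3159 and 2807 at day 10 in hyperoxia, against 919.7, 866.6 and 393.3 at day 8. Replicate 1 of day 10 stood well above the other 2, yet all 3 exceeded the day 8 arrays. The difference was 2.62 ± 0.44 (adjusted p = 0.0193), and a second probe set gave 1.63 ± 0.30 (adjusted p = 0.0239). Drd2, the dopamine receptor that also serves as the autoreceptor of dopaminergic neurons, rose as well, by 0.80 ± 0.14 (adjusted p = 0.0213). Among 17 clock and day-night genes Drd4 was the single call, and the median was 0.18. Dbp, a clock output factor, differed by 0.76 ± 0.23 (adjusted p = 0.216) and Nr1d1, a repressor within the clock, by 0.53 ± 0.18 (adjusted p = 0.273).

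Transcription factors of photoreceptors moved in both directions. Esrrb, a nuclear receptor that sustains rods in the mouse, had signals of 3247, 3059 and 2918 at day 10 in hyperoxia, against 1889, 1617 and 1357 at day 8. It rose by 0.94 ± 0.16 (adjusted p = 0.0193). Prdm1, a repressor that holds young photoreceptors back from the bipolar fate, had signals of 3597, 4073 and 4048 at day 10, against 6125, 5495 and 7428 at day 8, and fell by 0.69 ± 0.14 (adjusted p = 0.0368). The remaining 10 of the 12 factors tested were not called, and the median of the list was -0.04. Rxrg, a nuclear receptor of cones, differed by -1.24 ± 0.41 (adjusted p = 0.262), with 2 day 10 arrays at the floor and the third, at 344.5, above 1 of the day 8 arrays.

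**Figure D2:**
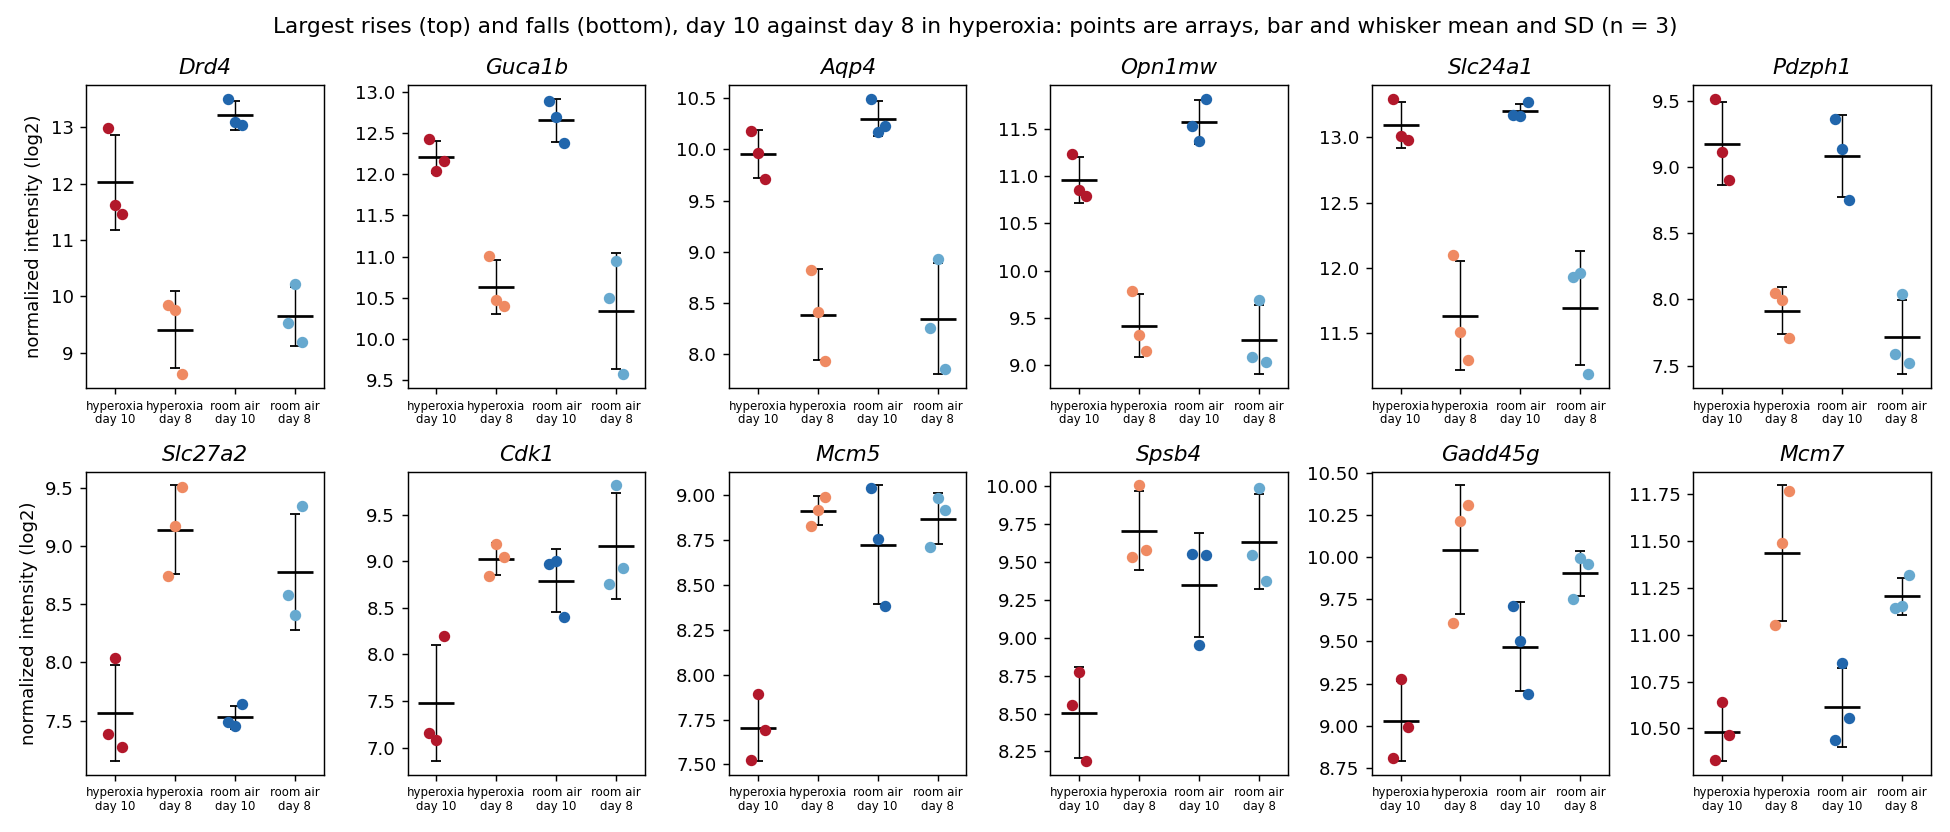
Normalized log2 intensity is plotted for each array (points; the bar and whisker give mean and SD, n = 3) of the 6 largest called rises in the top row and the 6 largest called falls in the bottom row, at days 10 and 8 in hyperoxia and in room air. The hyperoxia groups did not overlap for any of the 12 genes. For Mcm5, Cdk1 and Spsb4 the room air groups overlapped.

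Several synaptic genes were among the rises. Cabp4, a calcium-binding protein of the photoreceptor terminal that tunes its calcium channel, had signals of 2004, 1576 and 1862 at day 10 in hyperoxia, against 951.1, 830 and 940.2 at day 8, and rose by 1.00 ± 0.21 (adjusted p = 0.0469). Cplx4, a complexin of ribbon synapses, had signals of 8668, 7034 and 6923 at day 10, against 4833, 4210 and 4138 at day 8, and rose by 0.78 ± 0.15 (adjusted p = 0.0308). Rims2, an active zone scaffold, rose by 0.62 ± 0.12 (adjusted p = 0.0289). Its 3 day 10 signals were nearly equal, at 2207, 2234 and 2241, against 1469, 1592 and 1310 at day 8, and a second probe set gave 0.59 ± 0.22 (adjusted p = 0.335). Synpr, the vesicle protein synaptoporin, rose by 0.91 ± 0.17 (adjusted p = 0.0282). Of 20 genes of the ribbon synapse and vesicle release, 18 were positive, 2 were called and 8 did not overlap upward, against 8.84% of all probe sets, with a median of 0.20. Cacna1f, the pore subunit of the photoreceptor calcium channel, differed by 0.37 ± 0.13 (adjusted p = 0.294).

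Gng13, the G protein gamma subunit of the cascade of ON bipolar cells, had signals of 2363, 2111 and 1785 at day 10 in hyperoxia, against 1196, 1092 and 934.3 at day 8. It rose by 0.96 ± 0.16 (adjusted p = 0.0213). It was the 1 call among 15 bipolar cell genes, of which 12 were positive, with a median of 0.41. That median fell to 0.22 with the lens and pigment covariates and to 0.22 without hyperoxia day 8 replicate 2. Car8, a carbonic anhydrase-related protein of the bipolar list, differed by 0.95 ± 0.21 (adjusted p = 0.0607, 0.0316 with the replicate block and 0.0558 with the block within condition). Rgs11, which speeds the shutoff of the ON bipolar G protein, differed by 0.72 ± 0.22 (adjusted p = 0.223).

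No listed gene of the other inner neurons was called. Of 15 amacrine cell genes 0 were called, and the median was 0.03. Gad1, which makes GABA, had the lowest p of them, with a difference of 0.39 ± 0.11 (adjusted p = 0.177). Of 6 horizontal cell genes 0 were called, with a median of 0.13, and of 16 retinal ganglion cell genes 0 were called and 12 were positive, with a median of 0.13. Nefh, the heavy neurofilament of ganglion cell axons, differed by 0.63 ± 0.20 (adjusted p = 0.246). Of 10 neurotransmitter receptor genes 8 were positive and 0 were called. Gabrr2, a GABA receptor subunit of bipolar cells, differed by 1.01 ± 0.24 (adjusted p = 0.0858, 0.0435 with the replicate block and 0.0607 with the block within condition). Of 14 potassium, sodium and HCN channel and pump genes 13 were positive and 0 were called, led by the inward rectifier Kcnj14 at 1.18 ± 0.30 (adjusted p = 0.123, 0.0352 with the replicate block and 0.0482 with the block within condition).

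Müller glia genes were mostly higher at day 10. Aqp4, the water channel of Müller glia and astrocytes, had signals of 1162, 1002 and 837.4 at day 10 in hyperoxia, against 450.9, 339.1 and 244 at day 8. The difference was 1.57 ± 0.29 (adjusted p = 0.0261), and a second probe set gave 0.84 ± 0.20 (adjusted p = 0.0858), also without overlap. Clu, the secreted chaperone clusterin, rose by 0.83 ± 0.17 on 1 of its 4 probe sets (adjusted p = 0.0463, and a difference of 0.55 with the lens and pigment covariates), while the other 3 gave 0.70 to 1.13 and were not called. Glul, the glutamine synthetase that recycles glutamate in Müller glia, had signals of 9999, 9150 and 7328 at day 10, against 6207, 5611 and 4401 at day 8. Its difference of 0.71 ± 0.16 missed the threshold (adjusted p = 0.0693) and passed it with the replicate block (adjusted p = 0.0281) and with the block within condition (adjusted p = 0.0282). Counting each gene by its brightest probe set, 19 of 21 Müller glia genes were positive and 14 did not overlap upward, against 8.84% of all probe sets, with a median of 0.34, yet 0 were called. Of 9 reactive gliosis genes 0 were called, with a median of 0.06. Osmr, the oncostatin M receptor, was the gliosis gene with the lowest p, at 0.70 ± 0.21 (adjusted p = 0.231). Of 7 astrocyte genes 0 were called, with a median of 0.15, which turned to -0.06 with the filter at the 50th percentile and to -0.02 with the lens and pigment covariates. Fabp7, a fatty acid-binding protein of immature glia and progenitors, differed by -0.73 ± 0.19 (adjusted p = 0.132) without overlap.

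Several rises fell outside these groups. Il33, an interleukin-1 family cytokine kept in the nucleus, had signals of 849.6, 849.5 and 771.9 at day 10 in hyperoxia, against 429, 372.5 and 303.2 at day 8, and rose by 1.17 ± 0.19 (adjusted p = 0.0168). Vtn, the matrix protein vitronectin, rose by 1.10 ± 0.19 (adjusted p = 0.0213), and its second probe set rose by 1.34 ± 0.27 (adjusted p = 0.0368). Pdzph1, a protein with PDZ and pleckstrin homology domains, had signals of 731.9, 552.5 and 478.5 at day 10, against 264.2, 254.7 and 209.2 at day 8, and rose by 1.26 ± 0.19 (adjusted p = 0.0105). Hspa1b, an inducible heat shock chaperone, rose by 0.84 ± 0.14 (adjusted p = 0.0193). Its near-identical neighbour Hspa1a differed by 0.55 ± 0.14 (adjusted p = 0.132), and the probe sets of this pair may not separate the genes. Among 15 heat shock and unfolded protein response genes Hspa1b was the 1 call, and the median was -0.01. The list counts it by its brightest probe set, at 0.63 ± 0.13 (adjusted p = 0.0497, limma), which kept its call in 5 of 18 other settings. Rhot2, a GTPase that tethers mitochondria to motors, rose by 0.54 ± 0.10 (adjusted p = 0.0284), B3galt2, a galactosyltransferase, by 0.80 ± 0.16 (adjusted p = 0.0384, and a difference of 0.49 with the floor at the 30th percentile), and Chil1, a chitinase-like secreted protein, by 0.73 ± 0.15 (adjusted p = 0.0497).

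Map3k12, a kinase that signals axon injury, was the 1 called rise without a positive difference in room air. Its signals were 378.4, 581.2 and 433.6 at day 10 in hyperoxia, against 148.1, 207 and 234 at day 8. The difference was 1.24 ± 0.25 (adjusted p = 0.0384), but a second probe set of the gene gave 0.03 ± 0.17 (adjusted p = 0.981), so its probe sets disagree.

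Genes of DNA replication and mitosis were among the falls. Before cells copy their DNA, the MCM helicase subunits are loaded on it, and Cdk1 with the B-type cyclins later drives entry into mitosis. Genes of the first kind are commonly controlled through E2F elements in their promoters, and genes of the second kind through CHR elements and CCAAT boxes. The promoters of 4 called genes, 2 of each kind, are shown because these elements can be read in them. Each is 300 bases from RefSeq on build GRCm38.p6, 250 before and 50 after the gene's annotated start, and capitals mark every match to the E2F element (TTTCCCGC or TTTGGCGC), the CHR element (TTTGAA) and the CCAAT box (CCAAT) on either strand. No match overlapped another.
Mcm5, chr8:75109259-75109558, plus strand: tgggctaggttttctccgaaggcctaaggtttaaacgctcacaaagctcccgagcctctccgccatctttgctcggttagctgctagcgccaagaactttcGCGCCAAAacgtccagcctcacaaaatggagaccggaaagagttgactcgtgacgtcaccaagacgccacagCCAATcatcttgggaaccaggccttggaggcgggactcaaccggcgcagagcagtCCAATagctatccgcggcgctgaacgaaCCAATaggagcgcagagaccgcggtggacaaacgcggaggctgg
Mcm7, chr5:138171834-138172133, minus strand: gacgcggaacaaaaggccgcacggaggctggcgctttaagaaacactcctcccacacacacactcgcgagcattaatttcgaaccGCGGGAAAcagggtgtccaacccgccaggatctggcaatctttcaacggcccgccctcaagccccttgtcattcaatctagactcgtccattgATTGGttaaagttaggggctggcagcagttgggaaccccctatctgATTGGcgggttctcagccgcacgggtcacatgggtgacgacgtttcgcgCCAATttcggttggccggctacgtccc
Cdk1, chr10:69352863-69353162, minus strand: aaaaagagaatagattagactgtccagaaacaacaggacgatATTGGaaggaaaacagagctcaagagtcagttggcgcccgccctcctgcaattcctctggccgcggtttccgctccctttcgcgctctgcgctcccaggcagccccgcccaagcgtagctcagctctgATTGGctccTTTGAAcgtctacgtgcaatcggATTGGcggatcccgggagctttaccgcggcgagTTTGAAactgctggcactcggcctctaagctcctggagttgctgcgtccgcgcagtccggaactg
Ccnb2, chr9:70421505-70421804, minus strand: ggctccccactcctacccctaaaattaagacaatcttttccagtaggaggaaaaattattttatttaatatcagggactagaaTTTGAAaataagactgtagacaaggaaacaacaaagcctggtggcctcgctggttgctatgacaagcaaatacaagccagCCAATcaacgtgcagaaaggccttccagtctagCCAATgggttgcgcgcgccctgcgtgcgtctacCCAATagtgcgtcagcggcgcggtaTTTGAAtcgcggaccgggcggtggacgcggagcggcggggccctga

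The Mcm5 and Mcm7 promoters each held 1 E2F element and 3 CCAAT boxes and 0 CHR elements. The Cdk1 and Ccnb2 promoters each held 2 CHR elements and 3 CCAAT boxes and 0 E2F elements. Mcm7 has 2 annotated starts, of which the first listed is shown. Of 32851 promoters of the same length, 1.56% held the E2F element, 17.9% the CHR element and 37.4% the CCAAT box. A promoter was found for 26 of the 32 called genes, and some genes had several. Among 11 genes that fell, 2 held the E2F element, Mcm5 and Mcm7, 2 held the CHR element, Cdk1 and Ccnb2, and 8 held the CCAAT box. Among 15 genes that rose, 0 held the E2F element, 2 held the CHR element and 10 held the CCAAT box. The core of the site bound by the photoreceptor factor CRX (TAATCC, either strand) was in 0 of those 15 and in 1 of the 11, and in 7.06% of all promoters. Counts by gene are not on the same footing as shares of promoters, since any promoter of a gene could hold the match. By promoter, the CCAAT box was in 10 of 20 (50%) for rises and 9 of 13 (69.2%) for falls. The CHR element was in 2 of 20 (10%) for rises and 2 of 13 (15.4%) for falls. For the E2F element these were 0 of 20 for rises and 2 of 13 (15.4%) for falls. These matches describe the windows and are no measure of binding.

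Mcm5, a subunit of the MCM helicase, showed the fall with the lowest p. Its signals were 184.1, 237.5 and 207 at day 10 in hyperoxia, against 455.3, 484.8 and 509.5 at day 8. The arrays of a group lay close together and the groups lay far apart, and the difference was -1.21 ± 0.16 (adjusted p = 0.00321). Mcm7, another subunit, had signals of 1290, 1596 and 1415 at day 10, against 2122, 2880 and 3487 at day 8, and fell by 0.96 ± 0.19 (adjusted p = 0.0368). Its brightest probe set gave -0.55 ± 0.14 (adjusted p = 0.124), and its other 2 gave -0.37 ± 0.13 and -0.05 ± 0.18. All 16 DNA replication genes were negative, with a median of -0.34, and 10 of them did not overlap downward, against 10.6% of all probe sets, with 1, Mcm5, called. Lig1, the ligase that joins Okazaki fragments, had signals of 832.6, 860.8 and 773.6 at day 10, against 1547, 1155 and 1623 at day 8, a difference of -0.80 ± 0.19 (adjusted p = 0.0858). Rrm2, a ribonucleotide reductase subunit, differed by -0.69 ± 0.21 (adjusted p = 0.216).

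Cdk1, the kinase of mitotic entry, had signals of 143.1, 135.6 and 293.8 at day 10 in hyperoxia, against 458.8, 583.4 and 528.4 at day 8. The second of these arrays was at the floor, so the difference of -1.54 ± 0.28 (adjusted p = 0.0231) is understated. Ccnb2, a B-type cyclin, had signals of 135.6, 174.4 and 169.2 at day 10, against 266.2, 290 and 301.9 at day 8, and fell by 0.85 ± 0.16 (adjusted p = 0.0261), also with 1 array at the floor. With the floor at the 30th percentile the difference was -0.24 for Ccnb2 and -1.01 for Cdk1. Of 17 mitosis genes 15 were negative, with a median of -0.24, 2 were called and 6 did not overlap downward, against 10.6% of all probe sets. That median was -0.44 without hyperoxia day 8 replicate 1 and -0.12 without replicate 3 of the same group. Prc1, a spindle midzone protein, differed by -0.74 ± 0.22 (adjusted p = 0.204), and Birc5, of the chromosomal passenger complex, by -0.83 ± 0.25 (adjusted p = 0.210). Cdk4, the kinase of early cell cycle entry, fell by 0.57 ± 0.12 on 1 of 3 probe sets (adjusted p = 0.0497), and the other 2 gave -0.71 ± 0.17 and -0.46 ± 0.12.

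Progenitor and young neuron genes mostly had lower signals at day 10, but none of them was called. Of 19 genes tested 17 were negative, with a median of -0.23, and 7 did not overlap downward, against 10.6% of all probe sets. Ccnd1, the cyclin of retinal progenitors, had signals of 3496, 4272 and 3529 at day 10 in hyperoxia, against 4955, 6125 and 5700 at day 8, a difference of -0.57 ± 0.15 (adjusted p = 0.141). Gadd45g, a stress and differentiation protein that is expressed as progenitors leave the cycle, fell by 1.02 ± 0.20 (adjusted p = 0.0347). Spsb4, an adaptor of ubiquitin ligases, fell by 1.20 ± 0.23 (adjusted p = 0.0296) on 1 probe set, while its other one gave -0.22 ± 0.16 (adjusted p = 0.702). Slc27a2, an enzyme that activates very long-chain fatty acids, showed the largest fall among the calls. Its signals were 167.3, 263.5 and 155.2 at day 10, against 428.5, 575.7 and 724.6 at day 8, and the difference was -1.57 ± 0.25 (adjusted p = 0.0168). Moxd1, a copper monooxygenase-like protein, fell by 0.91 ± 0.17 (adjusted p = 0.0261) and Sh3bp2, a signalling adaptor, by 0.73 ± 0.13 (adjusted p = 0.0213).

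**Figure D3:**
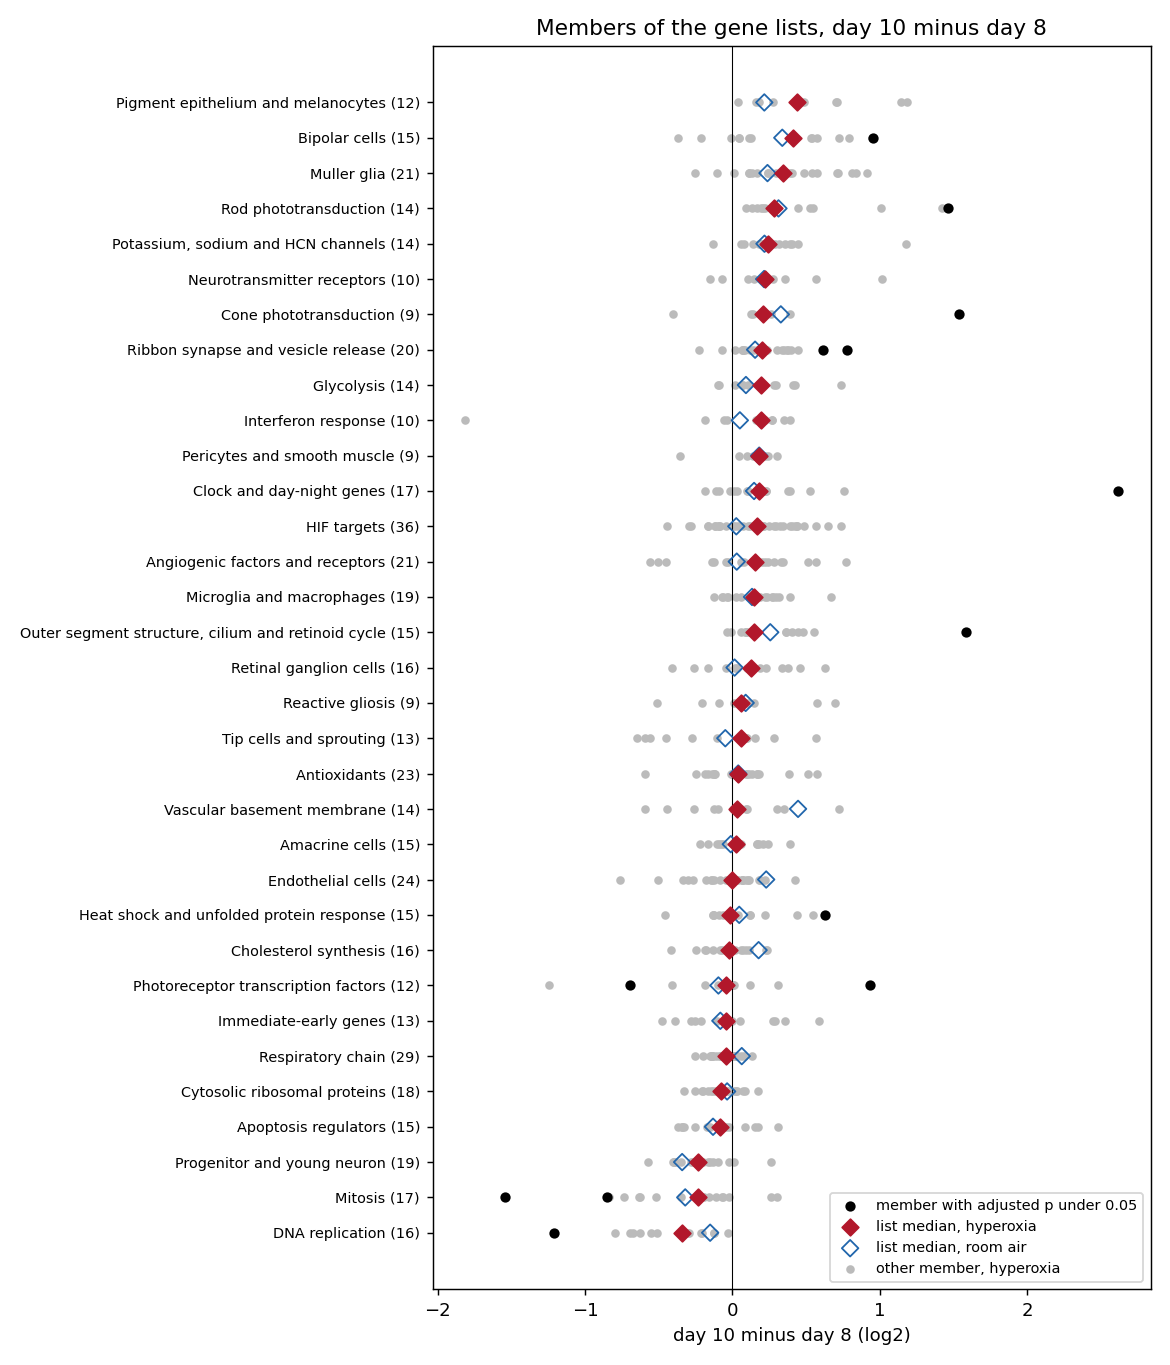
Each row is a gene list with at least 9 tested members (their number in parentheses, 1 probe set per gene; the lens list is left out for its scale), and the x axis is day 10 minus day 8 in log2. Grey and black points are members in hyperoxia, black where the adjusted p was under 0.05, and filled and open diamonds are the list medians in hyperoxia and in room air. Medians ran from 0.44 in the pigment epithelium list to -0.34 in the DNA replication list.

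Genes that answer to oxygen were mostly a little higher at day 10, and none of them passed the test. Vegfa, the growth factor that draws retinal vessels, had signals of 1688, 1395 and 1491 at day 10 in hyperoxia, against 1009, 1224 and 877.6 at day 8. The groups did not overlap, and the difference of 0.57 ± 0.13 had an adjusted p of 0.0607. A second probe set gave 0.10 ± 0.22 (adjusted p = 0.936). In room air Vegfa stood at 2099, 2138 and 2261 at day 10 and at 2153, 2274 and 1922 at day 8, a difference of 0.04 ± 0.13. The change in hyperoxia exceeded that in room air by 0.53 ± 0.18, with an unadjusted p of 0.00826 and an adjusted p of 0.622, so the difference in change did not pass. On every one of the 6 hyperoxia arrays Vegfa was below every one of the 6 room air arrays of these days.

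Bnip3, a mitochondrial protein that triggers mitophagy in low oxygen, had signals of 4342, 4285 and 5257 at day 10 in hyperoxia, against 3685, 3768 and 2824 at day 8, a difference of 0.44 ± 0.12 (adjusted p = 0.165). Hk2, the inducible hexokinase, had signals of 1587, 1458 and 1587 at day 10, against 1019, 962.8 and 811.1 at day 8, a difference of 0.74 ± 0.22 (adjusted p = 0.231). Pgam1, of lower glycolysis, differed by 0.28 ± 0.08 (adjusted p = 0.182). All 3 genes separated the groups without passing the test. Of 36 HIF targets 25 were positive, 14 did not overlap upward, against 8.84% of all probe sets, and 4 downward, against 10.6%, and 0 were called, with a median of 0.17 in hyperoxia and 0.03 in room air. Of 14 glycolysis genes, some of which are also HIF targets, 12 were positive and 7 did not overlap upward, against 8.84% of all probe sets, with a median of 0.19 (0.12 without hyperoxia day 8 replicate 3), and 0 were called. Respiratory chain genes had a median of -0.05 over 29 members, with 0 called.

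Vessel genes did not move together. Of 24 endothelial genes 12 were positive and 12 negative, with a median of -0.00, and 0 were called, whereas in room air the median was 0.23. The hyperoxia median was 0.08 with the deposited scaling, 0.07 with the filter at the 50th percentile and -0.08 without day 8 replicate 3. Tm4sf1, an endothelial surface protein, had signals of 282.2, 147.7 and 339 at day 10 in hyperoxia, against 453.8, 335.5 and 450.7 at day 8, a difference of -0.76 ± 0.24 (adjusted p = 0.237), and the groups overlapped. In room air it stood at 885.7, 665.3 and 690.5 at day 10, against 443.9, 616.9 and 572.4 at day 8. Of 14 genes of the vascular basement membrane 0 were called, with a median of 0.03 in hyperoxia and 0.45 in room air. In hyperoxia that median was -0.33 with the lens and pigment covariates and 0.11 without day 10 replicate 1. Lamb1, a laminin chain of that list, differed by -0.59 ± 0.21 in hyperoxia (adjusted p = 0.294) and by 0.57 ± 0.21 in room air (adjusted p = 0.247).

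Of 9 genes of pericytes and smooth muscle 0 were called, with medians of 0.18 in both conditions. Of 13 tip cell genes 0 were called, 2 did not overlap upward, against 8.84% of all probe sets, and 5 downward, against 10.6%. Their median of 0.06 was -0.10 without hyperoxia day 8 replicate 1, -0.01 without day 8 replicate 3 and -0.01 without day 10 replicate 2. Dll4, the Notch ligand of tip cells and arteries, had signals of 227.9, 219.5 and 274.8 at day 10 in hyperoxia, against 365.7, 345.9 and 416.2 at day 8, a difference of -0.65 ± 0.17 (adjusted p = 0.130). Nrp1, a co-receptor of VEGF and semaphorins, differed by -0.45 ± 0.13 (adjusted p = 0.182). Of 21 angiogenic factors and receptors 0 were called, with a median of 0.15 (0.05 with the lens and pigment covariates). Fgf1, a fibroblast growth factor, differed by 0.77 ± 0.23 (adjusted p = 0.228).

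The lists of immune, stress, metabolic and myelin genes gave 0 calls apart from Hspa1b in the heat shock list. Of 19 microglia and macrophage genes 14 were positive, with a median of 0.15 (0.04 without hyperoxia day 8 replicate 3). Laptm5, a lysosomal protein of white blood cells, had the lowest p of them, with a difference of 0.67 ± 0.23 (adjusted p = 0.284). Oas1a, an interferon-induced enzyme, had signals at the floor on all 3 day 10 arrays in hyperoxia, against 441.3, 423 and 578.4 at day 8. The fitted difference of -1.81 ± 0.48 (adjusted p = 0.132) therefore depends on the floor. Single arrays of other groups also lay at the floor for Oas1a. Its signals were 135.6, 818.2 and 629.3 at day 12 in hyperoxia and 135.6, 369.5 and 434.8 at day 7 in room air. Of all 10 interferon response genes 6 were positive and 4, Oas1a among them, were negative. The highest difference was 0.39 and the median was 0.19. That median was 0.06 without hyperoxia day 10 replicate 1 and 0.12 without day 8 replicate 1. It was 0.08 with the lens and pigment covariates and 0.26 with the deposited scaling. Of 23 antioxidant genes 0 were called, with a median of 0.04, led by the metallothionein Mt1 at 0.51 ± 0.22 (adjusted p = 0.435). Of 13 immediate-early genes and of 15 apoptosis regulators 0 were called, with medians of -0.04 for the immediate-early genes and -0.08 for the apoptosis regulators, 11 of which were negative. Without hyperoxia day 10 replicate 2 these medians were -0.12 for the immediate-early genes and -0.17 for the apoptosis regulators, and without day 10 replicate 3 that of the immediate-early genes was 0.05. Of 16 cholesterol synthesis genes 0 were called, with a median of -0.02, and of 18 ribosomal protein genes 0, with a median of -0.08. Of 5 myelin genes 0 were called. Mag, a myelin adhesion protein, had signals of 418.9, 358.2 and 445.1 at day 10, against 181.9, 194.1 and 278.9 at day 8, a difference of 0.92 ± 0.21 (adjusted p = 0.0638, 0.0363 with the replicate block and 0.0542 with the block within condition).

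The same days in room air were compared on 6 other arrays, so the hyperoxia and room air differences share no array, although they share the fit's estimate of the spread. In room air 167 probe sets (1.05%) were called, 124 higher (0.783%) and 43 lower (0.271%). Of the 39 called in hyperoxia, 38 had the same direction in room air, against 55.3% of all probe sets tested, and 24 were called there too. Those 24 are 61.5% of the hyperoxia calls and 14.4% of the room air calls. The median size of a difference over all probe sets was 0.141 in hyperoxia and 0.150 in room air.

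Set against room air, the rises and the falls gave the following values. The probe sets were picked by their p in hyperoxia, which by itself favours larger differences there than in room air. The counts of larger differences therefore do not show that changes were weaker in room air. Among the 26 probe sets that rose in hyperoxia, 18 were also called in room air, and 13 were larger there. Drd4 differed by 2.62 ± 0.44 in hyperoxia and by 3.57 ± 0.44 in room air, Opn1mw by 1.54 ± 0.28 in hyperoxia and 2.30 ± 0.28 in room air, and Gng13 by 0.96 ± 0.16 in hyperoxia and 1.46 ± 0.16 in room air. Slc24a1 was nearly equal, at 1.47 ± 0.27 in hyperoxia and 1.51 ± 0.27 in room air. Among the 13 that fell in hyperoxia, 6 were also called in room air, and 3 were larger there. Mcm5 differed by -1.21 ± 0.16 in hyperoxia and by -0.14 ± 0.16 in room air, where its signals were 526.2, 432.4 and 333.6 at day 10, against 418.8, 506.2 and 483.6 at day 8. Cdk1 differed by -1.54 ± 0.28 in hyperoxia and by -0.37 ± 0.28 in room air, and Ccnb2 by -0.85 ± 0.16 in hyperoxia and by -0.15 ± 0.16 in room air. Prdm1, at -0.69 ± 0.14 in hyperoxia and -0.68 ± 0.14 in room air, and Cdk4, at -0.57 ± 0.12 in hyperoxia and -0.62 ± 0.12 in room air, fell in both. Beyond the calls, the brightest Mcm7 probe set gave -0.55 ± 0.14 in hyperoxia and -0.56 ± 0.14 in room air. The median of the DNA replication list was -0.34 in hyperoxia and -0.15 in room air. That of the mitosis list was -0.24 in hyperoxia and -0.32 in room air. For progenitor and young neuron genes it was -0.23 in hyperoxia and -0.34 in room air.

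**Figure D4:**
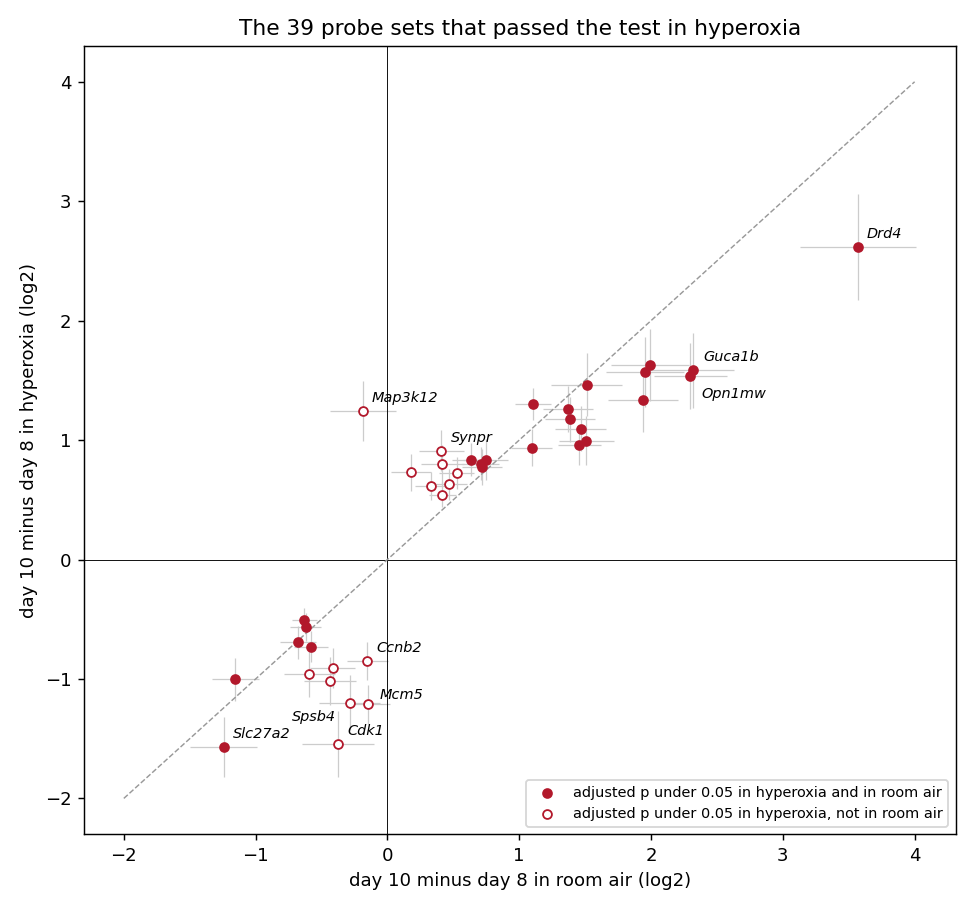
Each point is 1 of the 39 probe sets called in hyperoxia, with day 10 minus day 8 in room air on the x axis and in hyperoxia on the y axis, both in log2 with whiskers of 1 standard error, and the dashed line marks equal differences. Filled points, 24 of the 39, were also called in room air. Mcm5, Cdk1, Ccnb2 and Spsb4 lie nearer 0 in room air than in hyperoxia, at -0.14, -0.37, -0.15 and -0.29 in room air. Map3k12 is the 1 point on the opposite side of 0.

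The difference between the changes was tested in the same fit. No probe set passed (0 of 15838, 0%), with a lowest adjusted p of 0.600, while 1101 (6.95%) had an unadjusted p under 0.05. No gene's change in hyperoxia is therefore shown to differ from its change in room air, and this holds for the cell cycle genes too. Mcm5 was among the 5 named probe sets with the lowest p of this test, with a difference in change of -1.07 ± 0.23 (unadjusted p = 0.00017, adjusted p = 0.600). For Cdk1 it was -1.17 ± 0.39 (adjusted p = 0.622) and for Ccnb2 -0.70 ± 0.22 (adjusted p = 0.622). Map3k12 had a difference in change of 1.43 ± 0.35 (adjusted p = 0.600). The other 4 with the lowest p were Ssb, an RNA-binding protein of new RNA polymerase III transcripts, at 2.32 ± 0.46, Mag at 1.46 ± 0.30, Taok1, a stress kinase, at 1.02 ± 0.23, and Glrx, a glutathione-dependent reductase, at -0.82 ± 0.19, all at an adjusted p of 0.600. Taok1 had signals of 4646, 4186 and 3556 at day 10 in hyperoxia, against 3574, 2699 and 2784 at day 8, and 3196, 3007 and 3342 at day 10 in room air, against 4620, 4632 and 4848 at day 8.

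The neighbouring ages place these changes on a longer course. Mcm5 averaged 9.06 at day 7, 8.91 at day 8, 7.70 at day 10 and 7.76 at day 12 in hyperoxia on the log2 scale, and 8.93, 8.87, 8.73 and 7.95 at the same days in room air. Its day 10 level in hyperoxia was thus close to the day 12 level of both conditions. Drd4 averaged 8.70, 9.41, 12.02 and 13.81 at days 7, 8, 10 and 12 in hyperoxia and 8.26, 9.64, 13.21 and 13.87 in room air. On this probe set, the one with the largest rise, levels lay apart at day 10 and close together at day 12. The second Drd4 probe set did not show this. It averaged 11.17 in hyperoxia and 11.59 in room air at day 10, where the arrays of the conditions overlapped. At day 12 it averaged 11.93 in hyperoxia and 12.27 in room air. Vegfa averaged 10.28, 10.00, 10.57 and 11.14 at days 7, 8, 10 and 12 in hyperoxia and 11.16, 11.04, 11.08 and 11.10 in room air. Day 8 was the lowest of its 4 ages in hyperoxia, and at day 12 the conditions were within 0.1 of each other.

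**Figure D5:**
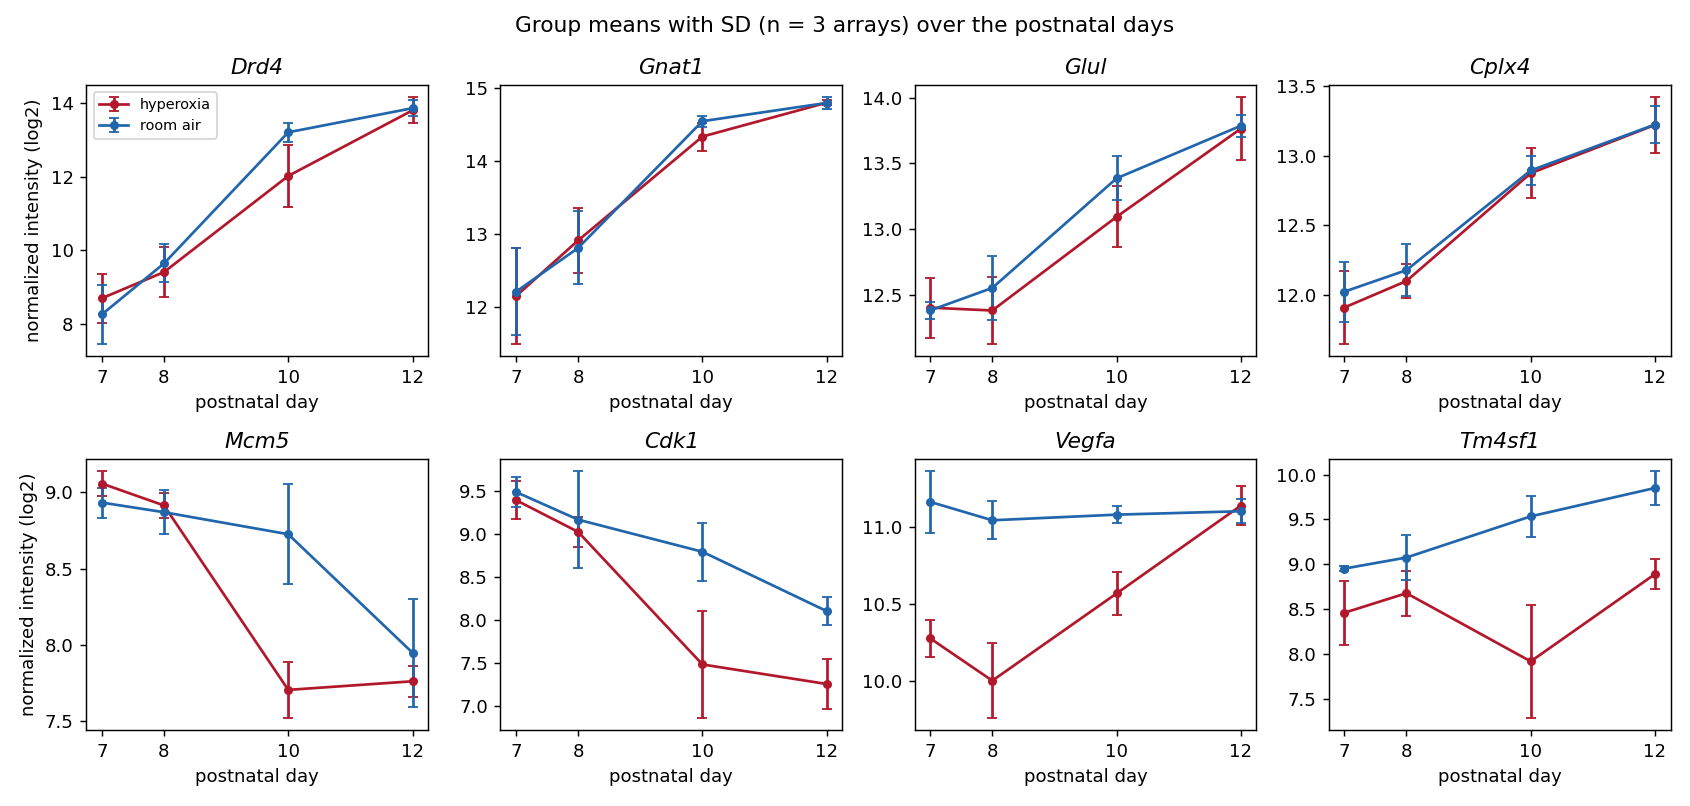
Mean normalized log2 intensity with SD (n = 3 arrays) is plotted against postnatal day for 8 genes, in hyperoxia and in room air. Gnat1, Glul and Cplx4 run close together in both conditions, Mcm5 at day 10, Cdk1 at days 10 and 12, Vegfa at days 7, 8 and 10 and Tm4sf1 at all 4 ages lie lower in hyperoxia.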

How the data were processed

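Retinal RNA was measured on 24 arrays, 3 in each of 8 groups. The authors deposited a table of linear intensities with 22690 probe sets in rows. The deposited intensities had a mean of 1500.35 to 1500.4 on every array after trimming 2% at each end, so they were scaled by the authors; the software is not given in the sources used here. Array medians were 570.2 to 679.7, a span of 0.253 on the log2 scale. Scanner files were not used here, and the number of arrays limits the precision.

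The log2 values were quantile normalized and floored, the 64 control rows and all rows with a mean under the 30th percentile were dropped, which left 15838 with 0.34% of values at the floor. The platform annotation gave 1 symbol to 20380 probe sets, several to 691 and none to 1555, and only the first were named. The contrasts came from one limma fit (version 3.58.1, R 4.3.3) of 8 group means (residual degrees of freedom 16, prior 3.54). The procedure was tested on simulated data with independent noise, where 50 probe sets were changed at each size. The comparison in hyperoxia recovered 38% of 1.5-fold, 68% of 2-fold and 92% of 4-fold changes, with 9 false calls. The difference in change recovered 10% of 1.5-fold, 54% of 2-fold and 90% of 4-fold changes, with 8 false calls. Changes of 2-fold or less can therefore be missed, more often in the difference in change. Arrays of a group correlated at 0.946 to 0.985, and 0 columns were identical.

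Deviations of arrays with the same replicate number correlated between hyperoxia day 10 and day 8, at 0.345, 0.327 and 0.110 (room air 0.378, 0.129 and 0.352; between the conditions -0.31 to 0.16), so values with the replicate block are given where they change a call. This pairing comes from the data, since the labels give only the numbers.

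Named genes were the up to 15 largest rises and falls among calls without overlap, up to 4 members with the lowest p from each of 41 lists, and the 5 lowest p of the difference in change; other called genes and probe sets are also given. A gene counted in a list by its brightest tested probe set. Of 778 genes listed, 669 were on the array and 551 were tested. The members and lists were chosen with earlier results of these data known. Alternatives changed the normalization, floor, filter, eBayes options, probe sets per gene, covariates, block, arrays in the fit and single arrays. Plots used Python 3.11.15 and matplotlib 3.10.9.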

Additional observations from a re-analysis of the deposited data

Results flagged for a closer look

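In 4 named genes every hyperoxia array of day 10 lay on one side of every hyperoxia array of day 8, while the room air arrays of the same days were separated the opposite way. This held for 126 of 15838 probe sets (0.796%). The difference in change (hyperoxia minus room air, log2) was 2.32 for Ssb, 1.46 for Mag, -0.82 for Glrx and -1.16 for Lamb1, each with an adjusted p of 0.600 in the limma fit. Ssb, Mag and Glrx were among the genes picked for a low p of this difference, which by itself favours opposite separation. The separation is therefore no further support for a difference in change.

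Ssb had signals of 1777, 925.2 and 995.6 at day 10 in hyperoxia, against 588.5, 386.9 and 477.8 at day 8, and of 558.9, 501.9 and 412.3 at day 10 in room air, against 1724, 580.2 and 954.2 at day 8. Glrx had signals of 657.9, 795.6 and 751.6 at day 10 in hyperoxia, against 891.9, 947.7 and 986.2 at day 8, and of 970.7, 988.9 and 1109 at day 10 in room air, against 777.1, 653.6 and 811.7 at day 8. Lamb1 had signals of 234.6, 313.8 and 330.5 at day 10 in hyperoxia, against 505.2, 407 and 404.6 at day 8, and of 665.4, 631.1 and 491.1 at day 10 in room air, against 408.7, 418.6 and 371.8 at day 8. Mag stood in room air at 307.2, 276.3 and 381.3 at day 10, against 550.6, 428.3 and 421.6 at day 8.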

How the results depend on the processing

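No called result changed direction under any alternative run. The count of 39 calls in hyperoxia became 73 with the replicate block, 64 with the block within each condition (chosen after seeing the data), 63 with robust eBayes and an intensity trend, 9 with only the 12 hyperoxia arrays in the fit, 2 with the lens and pigment levels as covariates and 2 with only the 6 arrays of the groups compared. Those last 2, Oas1a (adjusted p = 0.0166) and Pim1 (adjusted p = 0.0112), were not among the 39 and are named here because of these values. The other settings gave 28 to 58. Leaving out 1 array gave 1 to 41 calls, with the 41 without hyperoxia day 8 replicate 1. The difference in change had 0 calls except without the filter on low means, where 1 probe set, Ess2, was called at -1.12 (adjusted p = 5.41e-05); it is likewise named for its value. Mcm5 kept its call in 15 of 17 settings and Drd4 in 12 of 18, the other called genes in 4 to 12 of 16 to 18, and the unnamed 1418250_at kept it in 16 of 17. Of 777 alternative list medians, 38 had the other sign, 34 of them from lists whose median was under 0.1 in size. Medians moved by more than the spread between replicates in 33 of the fits that left out 1 array and in 20 of the other alternatives. The cause of these changes was not tested, except that fits with fewer arrays have fewer residual degrees of freedom by construction, 4 with 6 arrays.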
